A study of Homo sapiens with 24 samples.

Results

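ATF4 and 8 genes that it is known to switch on during stress (DDIT3, ATF3, ATF5, TRIB3, CHAC1, DDIT4, ASNS and SLC7A11) were followed in A375 and A549 cells held at the G1/S boundary, to learn whether doxycycline (Dox) or the loss of MCM7 moved the integrated stress response. The members were taken by name, with earlier results of these data known, and their Ensembl identifiers were matched to gene symbols. The share over all genes printed beside a count of members is therefore a scale and not a test. All 9 were found among the 21386 genes in the count tables, and all 9 passed the filter on low counts in every comparison.

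RNA was sequenced from the melanoma line A375 and the lung adenocarcinoma line A549, with 3 biological replicates in each of 4 groups per line and 24 libraries in all. One kind of cell was parental, without a construct. The other, called shMCM7, was a puromycin-selected population transduced with a lentiviral vector (multiplicity of infection 1.4) that expresses a short hairpin RNA against MCM7, a subunit of the replicative helicase, when Dox is added. Both were grown with Dox (1 μg/ml, over 72 hours) or left untreated (noDox). Every group, controls included, was arrested by a double thymidine block, and no library with a non-targeting hairpin is analysed here. Induction of the hairpin and exposure to Dox therefore come together in shMCM7 cells, and parental cells show Dox alone. The A375 libraries held 146656792 to 283721575 counts and the A549 libraries 17911338 to 23452823.

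Stress sensed by 1 of several kinases leads to phosphorylation of the translation factor eIF2. General protein synthesis then falls while the ATF4 message is translated better, because short upstream reading frames in its leader no longer hold ribosomes back. ATF4 protein, a bZIP transcription factor, binds DNA with partners of the C/EBP family and raises genes for amino acid supply, redox balance, feedback control and, under lasting stress, cell death. The response is known to be triggered by amino acid shortage, by unfolded proteins in the endoplasmic reticulum and by failing mitochondria, and tetracyclines such as Dox are known to slow mitochondrial translation. RNA-seq measures the messages only, so ATF4 translation and eIF2 phosphorylation were not measured.

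In GENCODE 29 (GRCh38) all 9 members are protein-coding genes. On the plus strand lie ATF4 (ENSG00000128272) on chromosome 22 from 39519695 to 39522685, TRIB3 (ENSG00000101255) on chromosome 20 from 362835 to 397559, CHAC1 (ENSG00000128965) on chromosome 15 from 40952962 to 40956519, DDIT4 (ENSG00000168209) on chromosome 10 from 72273920 to 72276036, ATF3 (ENSG00000162772) on chromosome 1 from 212565334 to 212620777 and ATF5 (ENSG00000169136) on chromosome 19 from 49928702 to 49933935. On the minus strand lie DDIT3 (ENSG00000175197) on chromosome 12 from 57516588 to 57521737, ASNS (ENSG00000070669) on chromosome 7 from 97852118 to 97872542 and SLC7A11 (ENSG00000151012) on chromosome 4 from 138164097 to 138242349.

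The letters to which ATF4 and its C/EBP partners are known to bind, the core of the C/EBP-ATF response element, were searched as TGATGNAA on either strand (TTNCATCA on the other) from 250 bases before to 50 bases after each RefSeq transcription start (GRCh38.p14). Windows were at hand for 8 members, SLC7A11 having none in the table, and 3 of these 8 held a match. Over all genes with a window the share was 4.46% of 27305. The 3 matches are shown because they are the sequence feature that some of these genes share, each 30 bases 5′ to 3′ on the gene's own strand with the matched letters in capitals.
ASNS, chr7:97872458-97872487, minus strand, 68 bases before the start: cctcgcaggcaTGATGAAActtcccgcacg
CHAC1, chr15:40953251-40953280, plus strand, 209 bases before the start: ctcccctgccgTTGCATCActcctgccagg
ATF3, chr1:212565205-212565234, plus strand, 191 bases before the start: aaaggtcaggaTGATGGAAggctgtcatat
The stretches of ASNS and CHAC1 lie before a RefSeq start but within the GENCODE spans given above. A match is a description of the letters in this window, and the other 5 members may carry such letters elsewhere.

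The targeted gene was checked first. In A375, MCM7 stood at 77.6, 75.8 and 76.8 CPM (read counts scaled to the library total) in shMCM7 cells with Dox and between 346 and 363 CPM in the 6 parental libraries. In shMCM7 cells without Dox, replicates 2 and 3 had 353 and 359 CPM, whereas replicate 1 had 131 CPM. In A549, MCM7 was low in 3 libraries with 3 different labels, namely shMCM7 Dox 3 (95.2 CPM), shMCM7 noDox 2 (97.8 CPM) and parental noDox 2 (88.1 CPM), while the other 9 held 301 to 341 CPM. The A549 labels thus go against the measured target, and A549 is reported by label in the tests and library by library beside MCM7. In A375, SOX10 (497 to 680 CPM) fitted a melanocytic origin but MLANA and TYR were near 0, with at most 2 counts. S100B (24.7 to 35.7 CPM) and S100A1 (17.6 to 34.0 CPM) were present in A375 and had at most 7 counts in A549. MITF, on the same marker list, did not separate the lines, with 26.7 to 44.7 CPM in A375 and 36.2 to 51.1 CPM in A549. PMEL overlapped slightly (1.93 to 5.24 and 0.321 to 1.99 CPM), and DCT had at most 0.641 CPM. A549 libraries held KRT8, KRT18 and KRT7 and 0 counts of SOX10, while the lung markers NKX2-1 and SFTPB had at most 1 count.

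The members differed widely in abundance. Divided by the exon length, which is needed to set levels of different genes side by side, ATF4 was highest in both lines, with a median over 12 libraries of 150.1 CPM per kilobase in A375 and 94.8 CPM per kilobase in A549. In A375, DDIT4, an inhibitor of the growth kinase complex mTORC1, followed at 103 CPM per kilobase and ASNS, the enzyme that makes asparagine, at 37.7. TRIB3 (25.6), CHAC1 (20.4) and DDIT3 (19.9) came next, then ATF5 (11.3), and last SLC7A11 (8.50) and ATF3 (7.42). In the 3 parental noDox libraries of A375, ATF4, DDIT4 and ASNS each stood clear of the next member down, as did DDIT3 and ATF5. TRIB3 overlapped with CHAC1, CHAC1 with DDIT3, and SLC7A11 with ATF3. The order was different in A549, where SLC7A11, the cystine transporter subunit known as xCT, stood after ATF4 and DDIT4 at 43.1 CPM per kilobase with a range overlapping that of DDIT4 (median 52.0). CHAC1, which degrades glutathione, had 1.94 CPM per kilobase in A549 and ATF3 had 1.67.

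Between the lines, 6 members had ranges that did not overlap, given here per library in CPM and without a test, because the lines were not part of a common comparison. In A549, 1 member lay wholly higher and 5 wholly lower than in A375, where 24.3% of 15829 genes lay higher and 35.8% lower, so that such a separation was common. SLC7A11 lay between 378 and 497 CPM in A549 and between 65.8 and 124 CPM in A375. CHAC1 went the other way, with 2.59 to 5.53 CPM in A549 and 21.9 to 57.8 CPM in A375. DDIT3, the pro-apoptotic bZIP factor CHOP, had 6.10 to 10.7 CPM in A549 and 18.1 to 31.7 CPM in A375, and ATF3, a bZIP factor induced by many stresses, 5.81 to 9.87 and 18.2 to 37.3 CPM. DDIT4 (82.7 to 126 CPM in A549, 151 to 243 CPM in A375) and ASNS (62.0 to 103 and 109 to 203 CPM) were likewise lower in A549, and ATF4, TRIB3 and ATF5 overlapped. DDIT3 overlaps MARS and MBD6, and ATF5 overlaps IL4I1, NUP62 and AC011452.1, all counted genes on the opposite strand. In A375 their medians were 397.7, 120.6, 7.29, 139.9 and 22.65 CPM in that order. Whether counting used the strand is not given in the sources used here, so counts of DDIT3 and ATF5 are uncertain.

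**Figure D1:**
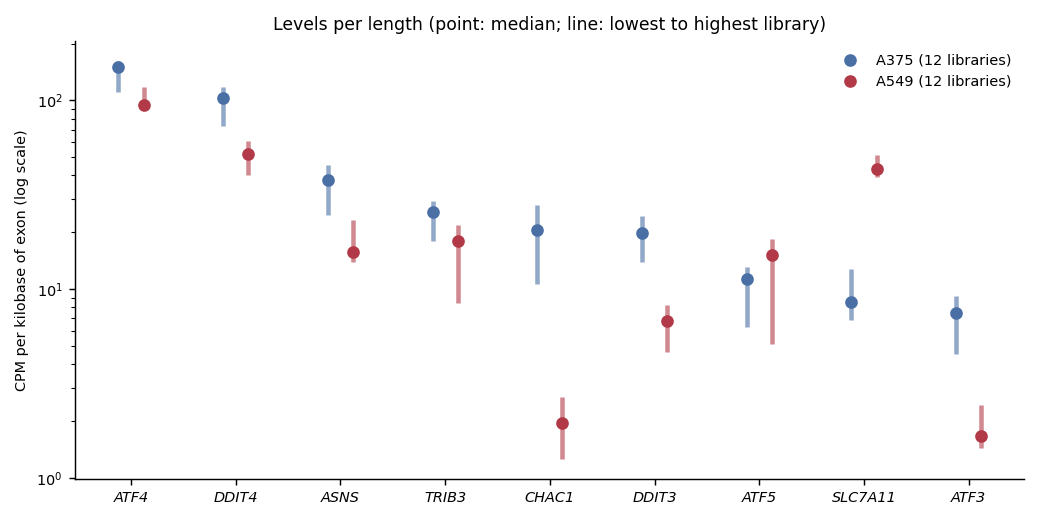
Levels of the 9 genes in CPM per kilobase of exon (vertical axis, log scale) in A375 (blue) and A549 (red); points are medians over 12 libraries and lines run from the lowest to the highest library. ATF4 is highest in both lines, and SLC7A11 is the member that sits well above its A375 level in A549.

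Dox alone did not bring any member past the thresholds in parental A375 cells (1.5-fold, p under 0.01 and FDR under 0.05 in edgeR's quasi-likelihood test, the rule for every call here). Of the 9 members 0 were called higher and 0 lower, and over all 15993 genes tested 0.0% were called in either direction, although 1121 genes had an unadjusted p under 0.05. DESeq2 called 0 members as well. Values of 7 members leaned upward and those of 2 downward, with a median log2 fold change of 0.18 beside -0.00064 over all genes. The 95% intervals bound how large a rise could be: for 8 of 9 members the upper bound lay under 0.585 on the log2 scale, which is the 1.5-fold threshold, and for CHAC1 it did not.

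ATF4 itself had 395, 389 and 408 CPM in parental cells with Dox and 376, 362 and 319.5 CPM without. The 2 groups did not overlap, yet the distance was small, with a log2 fold change of 0.19 (SE 0.0623, 95% interval 0.05 to 0.33) and an FDR of 0.607. TRIB3, a pseudokinase that dampens ATF4 and DDIT3 activity, was the other member without overlap, at 99.7, 90.5 and 93.8 CPM with Dox and 88.1, 88.0 and 77.8 CPM without. Its log2 fold change was 0.18 with an FDR of 0.619. In all, 2 of 9 members lay higher without overlap and 0 lower, where 4.89% of all genes with a mean of at least 10 counts lay higher and 8.89% lower.

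The widest difference in this comparison belonged to CHAC1, and it was also the least certain. CHAC1 had 57.8, 47.4 and 45.1 CPM with Dox and 50.0, 39.1 and 21.9 CPM without, so that the groups overlapped. The log2 fold change was 0.45 (SE 0.221, 95% interval -0.03 to 0.94). ASNS stood at 203, 171 and 189.8 CPM with Dox and 166, 195 and 118 CPM without, a log2 fold change of 0.25 with an FDR of 0.745. SLC7A11 was at 124, 82.0 and 82.0 CPM with Dox, where replicate 1 stood apart, and at 92.7, 84.9 and 70.7 CPM without. DDIT3 differed by a log2 fold change of 0.18, and its 2 groups overlapped. For DDIT4 (0.01), ATF5 (-0.02) and ATF3 (-0.08) the fitted log2 fold changes lay close to 0, and the 95% interval of ATF3 ran from -0.41 to 0.25.

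A single library carried part of the upward lean. The parental noDox replicate 3 was the lowest of its group for 8 of 9 members, with CHAC1 at 21.9 CPM beside 50.0 and 39.1 CPM. Without this library the median of the members' log2 fold changes was 0.07 and CHAC1 came to 0.18, and without the parental Dox replicate 1 the median was 0.10. In both cases 7 of 9 members stayed above 0. Other omissions raised the median. It was 0.24, with 9 of 9 members above 0, without the parental noDox replicate 1. Without the noDox replicate 2 or the Dox replicate 2 it was 0.21, with 7 of 9 above 0. Among shMCM7 cells without Dox, replicate 3 was likewise the lowest for 8 of 9 members. The parental Dox replicate 3 held 8.93 CPM of the fibroblast collagen gene COL3A1, whereas the other 11 A375 libraries held at most 0.70 CPM. Summed over the 5 fibroblast markers looked at (COL1A1, COL1A2, COL3A1, PDGFRA and PDGFRB), parental cells held 16.6 to 42.1 CPM with Dox and 16.0 to 22.5 CPM without. Without that library the members' median was 0.19 and 0 members were called.

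**Figure D2:**
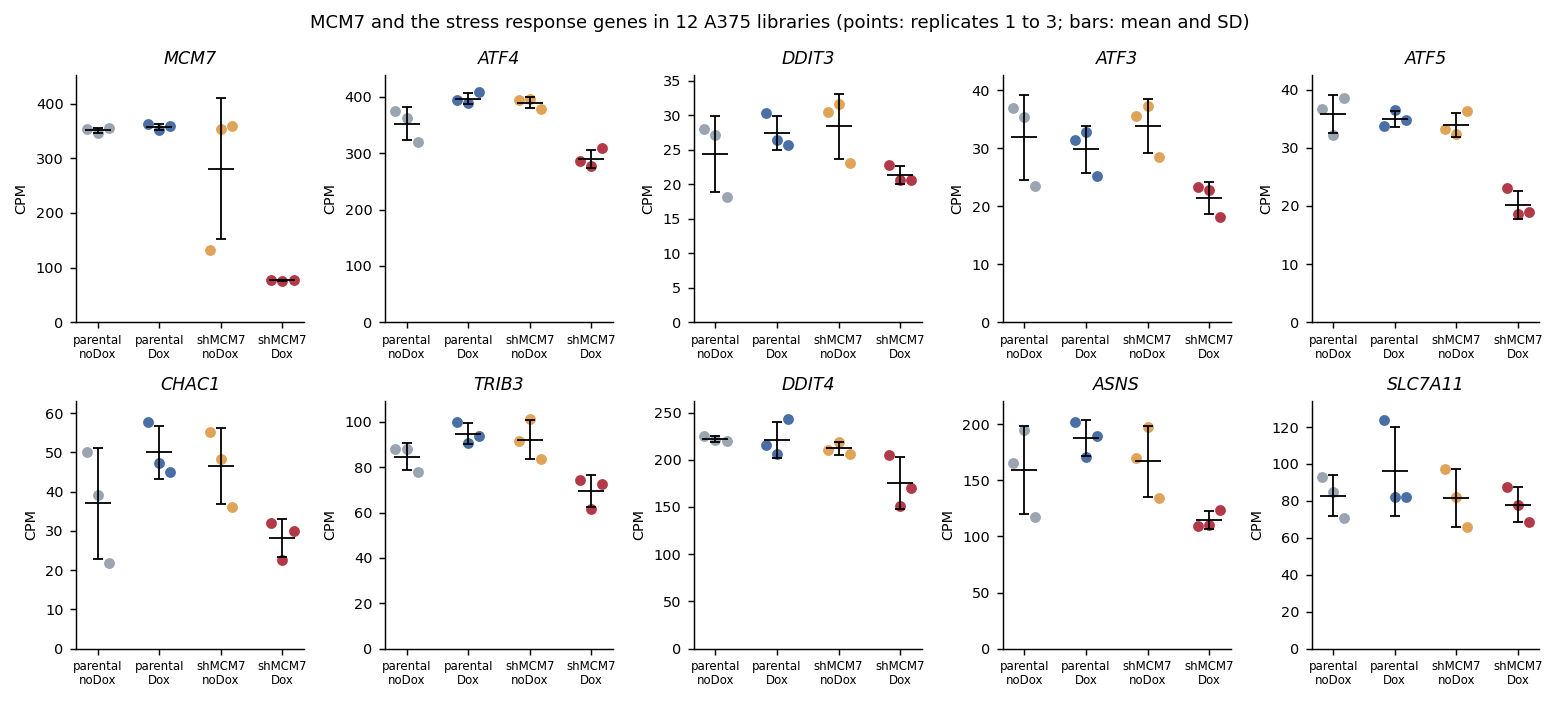
MCM7 and the 9 stress response genes in the 12 A375 libraries, in CPM (vertical axis from 0) for parental and shMCM7 cells without and with Dox; points are replicates 1 to 3 from left to right, bars are the mean and SD. The shMCM7 Dox libraries lie lowest for ATF4 (277 to 308 CPM) and ATF5 (18.6 to 23 CPM), and replicate 3 is the low point of most noDox groups.

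In shMCM7 cells the same Dox exposure, now with the hairpin induced, was accompanied by lower levels of these genes. All 9 members had a negative log2 fold change, 8 of them with an FDR under 0.05, and the median was -0.42 beside 0.0045 over all genes. The changes were moderate, so that only 3 of 9 (ATF5, CHAC1 and ATF3) fell by at least 1.5-fold and were called lower, where 6.45% of all 16087 genes tested were called lower. Of the 9 members 0 were called higher, where 5.58% of genes were. In 8 of 9 members each Dox library was below each noDox library, as it was in 28.3% of all genes, and 0 members lay higher without overlap, as 26.3% of genes did. In bulk RNA, fewer cells using a gene and less RNA per cell cannot be told apart. The 5 fibroblast markers summed to 29.4 to 38.7 CPM with Dox and 19.4 to 26.4 CPM without in shMCM7 cells, where PDGFRB was called higher (log2 fold change 0.84, FDR 0.00144) and COL3A1 stayed at or below 0.69 CPM. Among leukocyte markers, CD68 had a log2 fold change of 0.50 (FDR 0.000263), while PTPRC and CD3E had at most 12 counts in any A375 library. The 8 lung epithelium markers summed to 377 to 482 CPM in shMCM7 cells with Dox, 356 to 418 CPM in those without and 294 to 296 CPM in parental cells with Dox. In A375 this list was led by the keratins KRT18 (202 to 365 CPM), KRT8 (60.0 to 93.4 CPM) and KRT7 (13.9 to 25.7 CPM). EPCAM, CDH1, NKX2-1, SFTPB and ALDH1A1 held at most 0.85 CPM. The 8 melanoma markers summed to 598 to 700 CPM in shMCM7 cells with Dox, 679 to 708 CPM in those without and 697 to 782 CPM in parental cells with Dox. The part of these markers in the result was not tested.

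ATF4 had 286, 277 and 308 CPM with Dox and 395, 396 and 379 CPM without. All Dox libraries were below all noDox libraries, and the log2 fold change was -0.42 (SE 0.057, 95% interval -0.55 to -0.30) with an FDR of 0.000431, which is past the FDR but short of the 1.5-fold threshold. ATF5, a bZIP factor of the ATF4 family that is known for its role in mitochondrial stress, had 23, 18.6 and 19.0 CPM with Dox and 33.2, 32.3 and 36.3 CPM without. It fell by 0.75 on the log2 scale (SE 0.0848, FDR 0.00019), the largest change among the members. As given above, counts of ATF5 and DDIT3 are uncertain because of overlapping genes on the opposite strand. ATF3 had 23.3, 22.7 and 18.2 CPM with Dox and 35.6, 37.3 and 28.6 CPM without, and fell by 0.66 (SE 0.116, FDR 0.00181). The call of ATF3 was lost without the shMCM7 Dox replicate 3 (-0.55) and without the noDox replicate 2 (-0.58). DDIT3 had 22.8, 20.6 and 20.6 CPM with Dox and 30.5, 31.7 and 23.03 CPM without, a log2 fold change of -0.41 with an FDR of 0.0144.

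Among the feedback and effector genes, CHAC1 changed most. CHAC1 was at 31.9, 22.6 and 29.99 CPM with Dox and 55.2, 48.3 and 36.0 CPM without, and fell by 0.72 (SE 0.157, FDR 0.00532). The spread among noDox libraries was wide, and without the noDox replicate 1 the value was -0.58 and no longer called. TRIB3 had 74.3, 61.4 and 72.6 CPM with Dox and 91.3, 101 and 83.8 CPM without, which gave a log2 fold change of -0.41 with an FDR of 0.00454. DDIT4 was at 205, 151 and 171 CPM with Dox and 210.2, 219 and 207 CPM without. Its Dox replicate 1 nearly reached the noDox libraries, and its log2 fold change was -0.27 with an FDR of 0.0374.

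The 2 members that serve amino acid supply are ASNS and SLC7A11. ASNS had 109, 110.5 and 124 CPM with Dox and 169.9, 197 and 134 CPM without, so that no library overlapped. The log2 fold change was -0.54 (SE 0.121, FDR 0.00581), and it passed the fold threshold when the Dox replicate 3 (-0.60) or the noDox replicate 3 (-0.67) was left out. SLC7A11 had 87.6, 77.5 and 68.6 CPM with Dox and 97.2, 81.9 and 65.8 CPM without. Its groups overlapped, and the log2 fold change of -0.07 had a 95% interval from -0.36 to 0.22.

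The shMCM7 noDox replicate 1, in which MCM7 was already low at 131 CPM, was not a low library for the stress response genes. In it 7 members lay between replicates 2 and 3, and 2 (CHAC1 and SLC7A11) lay above both. ATF4 was at 395 CPM there, beside 396 and 379 CPM. Genes of the wider pathway, read below, were mixed. GDF15 was lowest in this library (45.1 CPM beside 75.0 and 72.2 CPM), and so was MTHFD2 (213 CPM). CTH (19.6 CPM) and ADM2 (18.2 CPM) lay between the other replicates, and CBS (2.30 CPM) lay above both.

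Parental and shMCM7 cells were also compared directly. Without Dox, 0 of 9 members were called in either direction, where 1.17% of 16093 genes were called higher and 0.478% lower (189 and 77 genes, or 335 and 149 once replicate numbers entered as a block). Of the members, 1 (ATF4) lay higher and 1 (DDIT4) lower without overlap, beside 10.2% and 12.1% of genes. The members' log2 fold changes (shMCM7 against parental) ran from -0.07 to 0.33, and that of ATF4 was 0.15 (95% interval 0.01 to 0.29, FDR 0.261). With Dox in both, all 9 members were below 0, and ASNS (-0.72, FDR 9.21e-05), CHAC1 (-0.84, FDR 0.000874) and ATF5 (-0.80, FDR 7.08e-05) were called lower, where 8.39% of 16086 genes were, and 0 were called higher, where 7.64% were. In 8 of 9 members the groups did not overlap and shMCM7 was lower, as in 28.7% of genes, and 28.9% lay higher. ATF4 was -0.46 (SE 0.0564) in this comparison, and SLC7A11 -0.31 with a 95% interval of -0.67 to 0.04. These comparisons share libraries with those above and do not add independent samples.

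**Figure D3:**
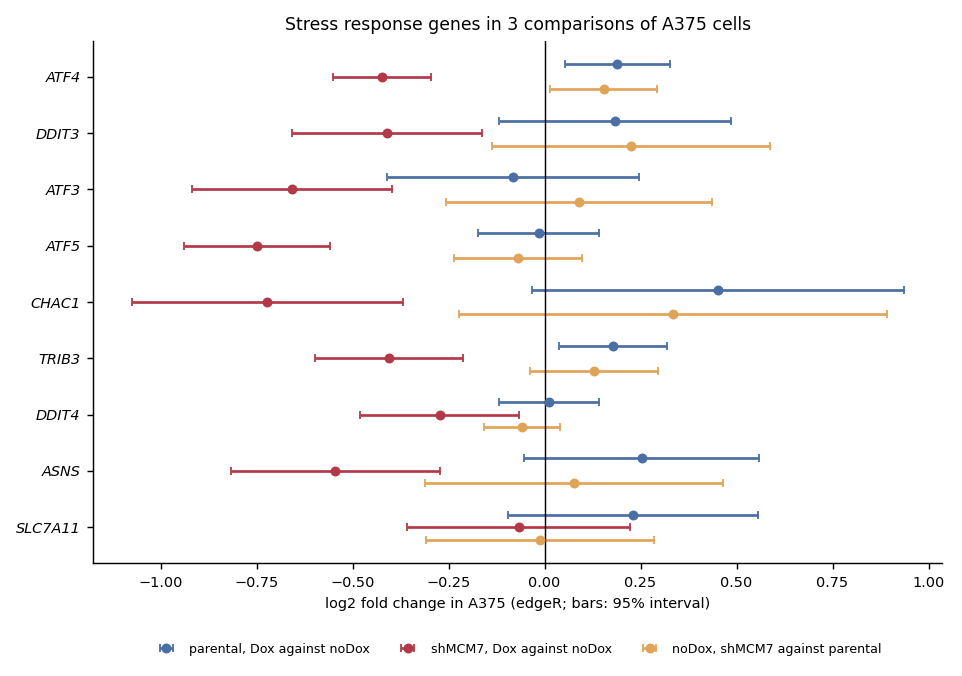
Log2 fold changes of the 9 genes in A375 (horizontal axis; points with 95% intervals from edgeR) for Dox against noDox in parental cells (blue), Dox against noDox in shMCM7 cells (red) and shMCM7 against parental cells without Dox (orange). The red points lie below 0 for all 9 genes, with SLC7A11 at -0.07 and ATF5 at -0.75, whereas the blue points run from -0.08 to 0.45.

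Whether the Dox effect differed between the 2 kinds of cell was tested as an interaction over all 12 A375 libraries. The difference, shMCM7 minus parental, was negative for all 9 members with a median of -0.60, and 5 of 9 were called lower, where 6.17% of 16334 genes were. Of the members 0 were called higher, where 4.37% of genes were. CHAC1 had the largest difference at -1.18 (SE 0.331, 95% interval -1.89 to -0.47, FDR 0.0165). ASNS differed by -0.80 (SE 0.221, FDR 0.0148) and ATF5 by -0.74 (SE 0.118, FDR 0.000497). ATF4 differed by -0.61 (SE 0.0867, 95% interval -0.80 to -0.43, FDR 0.000198). TRIB3, at -0.59 (FDR 0.00204), lay just past the fold threshold and was not called with DESeq2's size factors. DDIT3 (-0.60, FDR 0.0435) and ATF3 (-0.58, FDR 0.0669) were just outside the calls, though DDIT3 was called by DESeq2's Wald test and without a filter, and DDIT4 (-0.29) and SLC7A11 (-0.30) were further off. The number of members called fell to 3 without the parental Dox replicate 1, the parental noDox replicate 3 or the shMCM7 Dox replicate 2, and was 7 without the shMCM7 noDox replicate 3.

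The rest of the pathway was read from 8 lists holding 93 genes. The lists too were chosen with earlier results of these data known. Shares over all genes are printed beside their counts as a scale, and an excess over them is not a test. Dox alone called 0 genes in every list in parental A375 cells. The 12 enzymes of amino acid and one-carbon metabolism nevertheless leaned upward, 11 of them above 0 with a median log2 fold change of 0.23, and so did all 8 amino acid transporters (median 0.10). Over all genes tested 50.35% lay below 0. The lists were not summarised without parental noDox replicate 3, the library that carried part of the members' upward lean, so its share in these medians was not tested. NUPR1, a stress-induced chromatin protein, had 14.2, 12.8 and 19.3 CPM with Dox and 9.08, 10.8 and 8.14 CPM without. Its log2 fold change of 0.74 had an FDR of 0.478. ADM2, a secreted peptide of the adrenomedullin family, had 22.4, 19.9 and 23.4 CPM with Dox and 16.7, 16.8 and 11.2 CPM without, a log2 fold change of 0.57 with an FDR of 0.503. The chaperones and proteases of mitochondria were centred on 0 (median -0.0024, 4 of 8 above 0), as were the endoplasmic reticulum chaperones with the XBP1 and ATF6 targets (median -0.01, 6 of 14 above 0). The mitochondrially encoded proteins had a median of 0.04.

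In shMCM7 cells with Dox, the transporters had a median log2 fold change of -0.28 and the enzymes one of -0.48, beside -0.42 for the members. Of the 8 transporters 3 were called lower, beside 6.45% of all genes. SLC7A5, the large neutral amino acid transporter LAT1, had 507, 447 and 394 CPM with Dox and 1425, 1616 and 1126 CPM without, and fell by 1.63 on the log2 scale (FDR 5.22e-05). SLC3A2, its heavy chain and also the partner of SLC7A11, fell by 1.15 (FDR 9.64e-05), and SLC6A9, a glycine transporter, fell by 0.59 (FDR 0.00253), just past the fold threshold. Of the 12 enzymes 4 were called lower, beside the same 6.45% of all genes. MTHFD2, the mitochondrial folate enzyme, had 77.9, 78.8 and 77.0 CPM with Dox and 213, 380 and 318 CPM without, where the value of 213 CPM came from the replicate with low MCM7. It fell by 1.96 (FDR 6.45e-05). PSAT1 of serine synthesis fell by 1.20 (FDR 4.97e-05), CTH by 0.68 and CBS by 0.65, the latter pair being enzymes of transsulfuration.

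Other lists held fewer or no calls, where 6.45% of all genes were called lower and 5.58% higher. The secreted stress cytokine GDF15 fell by 1.19 (FDR 0.00191) and ADM2 by 0.68 (FDR 0.0104), the 2 calls among 11 tested genes of the remaining ATF4 targets. None of the 12 aminoacyl-tRNA synthetases was called, although all 12 were below 0 with a median of -0.22. None of the 14 genes of the eIF2 kinases, the eIF2B complex and the phosphatase feedback was called, and 8 of them were below 0 (median -0.0049). None of the 14 endoplasmic reticulum genes (median -0.14) and none of the 8 mitochondrial chaperones and proteases (median -0.13) was called. Of the 13 mitochondrially encoded proteins, MT-ND6, a complex I subunit and the one protein encoded on the light strand, was called higher, at 389, 357 and 312 CPM with Dox beside 149, 94.1 and 83.5 CPM without (log2 fold change 1.70, FDR 0.000167). Without knowledge of the strand, its reads and those of RNA from the opposite strand cannot be told apart. The other 12 lay between -0.21 and 0.51.

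The difference of the Dox effects between shMCM7 and parental cells was called lower for 3 of 8 transporters, 7 of 12 enzymes, 1 of 12 synthetases and 3 of 11 other targets, beside the 6.17% of all genes. It was called higher for 1 of 13 mitochondrially encoded proteins (MT-ND6, 1.95, FDR 0.000254), beside 4.37% of all genes, and 0 genes were called in the eIF2, endoplasmic reticulum and mitochondrial chaperone lists. MTHFD2 differed by -2.23 (FDR 1.86e-05), SLC7A5 by -1.81 (FDR 0.000153), GDF15 by -1.62 (FDR 0.00108) and the alanyl-tRNA synthetase AARS1 by -0.60 (FDR 0.000952). NUPR1, which was not called in shMCM7 cells, was called lower here at -0.84 (FDR 0.0284).

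**Figure D4:**
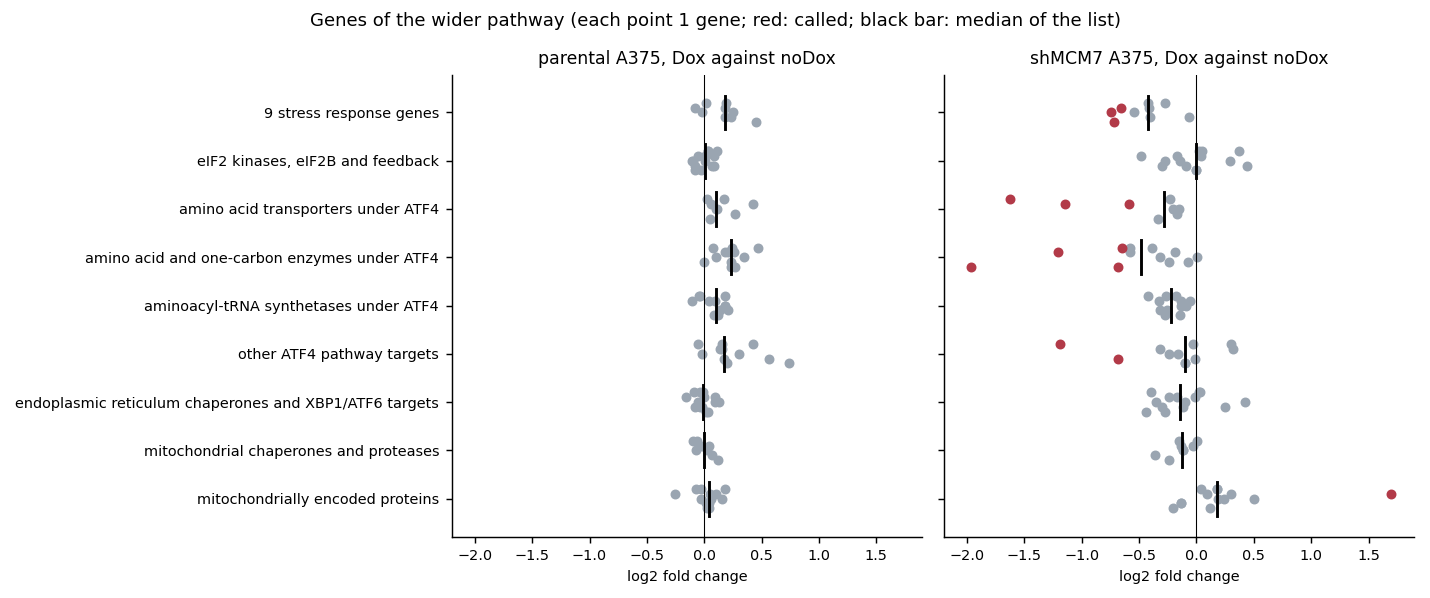
Log2 fold change with Dox (horizontal axis) of every tested gene in the member list and the 8 lists of the wider pathway, in parental A375 cells (left) and shMCM7 A375 cells (right); each point is 1 gene, red points were called and black bars are list medians. No point is red on the left, and on the right the called genes are MT-ND6 at 1.70 and, below 0, members, transporters, enzymes and other targets down to MTHFD2 at -1.96.

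By Pearson's r over the 12 A375 libraries with the mean standardised log2 CPM of the 9 members, the genes most alike among 15263 ranked were JTB (0.96), CTH (0.96), PPP1R14B (0.96), ALDH2 (0.95) and RP9 (0.95). JTB, for instance, had 115, 107 and 114 CPM in shMCM7 cells with Dox and 128, 123.3 and 119 CPM without. Over the 12 A549 libraries the same measure gave 0.45 for JTB, -0.42 for CTH, 0.51 for PPP1R14B, -0.04 for ALDH2 and 0.42 for RP9. CTH rested on 44 to 76 counts per library in A549. Among the members, TRIB3 followed the mean profile most closely (r = 0.96) and SLC7A11 least (r = 0.63). These values describe 12 libraries that share 4 groups and carry no test.

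In A549, tests by label called 0 of 9 members with Dox in the libraries labelled parental and 0 of 9 in those labelled shMCM7, where 0.0% of 13494 and of 13550 genes were called and 1137 and 61 genes had an unadjusted p under 0.05. By DESeq2 also 0 members were called in both. By label, ATF3 lay higher and ATF4 lower without overlap in the libraries labelled parental, beside 8.36% and 12.9% of genes, and 0 members did so in those labelled shMCM7, beside 1.73% higher and 1.41% lower. In the libraries labelled parental, CHAC1 had a log2 fold change of 0.43 (95% interval -0.07 to 0.93, FDR 0.506) and ATF4 one of -0.15 (95% interval -0.37 to 0.08). In those labelled shMCM7, ATF4 had 0.05 (95% interval -0.25 to 0.36). Since the low-MCM7 libraries are spread over 3 labels, those 3 groups hold both kinds of library. The parental Dox group held only libraries with 324 to 327 CPM of MCM7, whereas its noDox group included parental noDox 2 at 88.1 CPM. The comparison labelled parental is therefore uneven in MCM7. The intervals were wide, and that of ATF5 in the libraries labelled shMCM7 ran from -1.07 to 0.83.

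Set beside MCM7 library by library, 4 members separated the 3 A549 libraries with low MCM7 from the other 9. This split was made by a measured value and not by a label, so it is described without averages or a test. TRIB3 was at 38.1 (labelled shMCM7 Dox 3), 28.8 (shMCM7 noDox 2) and 28.9 CPM (parental noDox 2), whereas the other 9 libraries held 54.6 to 75.1 CPM. ATF5 was at 18.9, 20.0 and 15.1 CPM in the same order, below the other 9 at 37.8 to 54.6 CPM. DDIT3 was at 6.10, 6.63 and 6.13 CPM, below 7.94 to 10.7 CPM. These 3 genes therefore lay lower in the low-MCM7 libraries, as 20.6% of 13497 genes did. Counts of ATF5 and DDIT3 are uncertain here too because of the overlapping genes on the opposite strand. In A549 the medians were 202 CPM for MARS and 40.7 CPM for MBD6, which overlap DDIT3. For the neighbours of ATF5 they were 9.32 (IL4I1), 188 (NUP62) and 31.0 CPM (AC011452.1).

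ATF4 went the opposite way in A549, with 297, 271 and 278 CPM in the libraries with low MCM7 and 223 to 247 CPM in the other 9, a position that 18.8% of genes shared. In A375 the ATF4 message was lowest in the shMCM7 group with Dox, where low MCM7 and Dox come together. The shMCM7 noDox replicate 1 of A375, with MCM7 at 131.5 CPM and no Dox, held 395 CPM of ATF4. In A549 the remaining 5 members overlapped. ASNS, which was lower in A375 shMCM7 cells with Dox, stood at 76.3, 69.9 and 66.9 CPM within a range of 62.0 to 103 CPM, and SLC7A11 at 453, 436 and 497 CPM beside 378 to 479 CPM. CHAC1 was at 4.69, 2.66 and 2.59 CPM, the last below and the first within the other libraries' 2.62 to 5.53 CPM, and it rested on 52 to 110 counts in these 3 libraries. In the wider pathway, SLC7A5 was at 707, 716 and 602 CPM beside 1224 to 1607 CPM, and MTHFD2 at 94.4, 88.6 and 93.9 CPM beside 246 to 335 CPM. Beside the 20.6% of all genes that lay wholly lower in the low-MCM7 libraries, 7 of 8 mitochondrial chaperones and proteases did so, 7 of 12 synthetases, 4 of 8 transporters, 5 of 12 enzymes and 5 of 14 genes of the eIF2 list. The counts were 4 of 14 for the endoplasmic reticulum genes, 1 of 11 for the other targets and 0 of 13 for the mitochondrially encoded proteins. Wholly higher were 2 genes of the eIF2 list, 2 other targets, 1 transporter, 1 endoplasmic reticulum gene and 1 mitochondrially encoded protein, and 0 in the remaining lists, beside 18.8% of all genes.

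**Figure D5:**
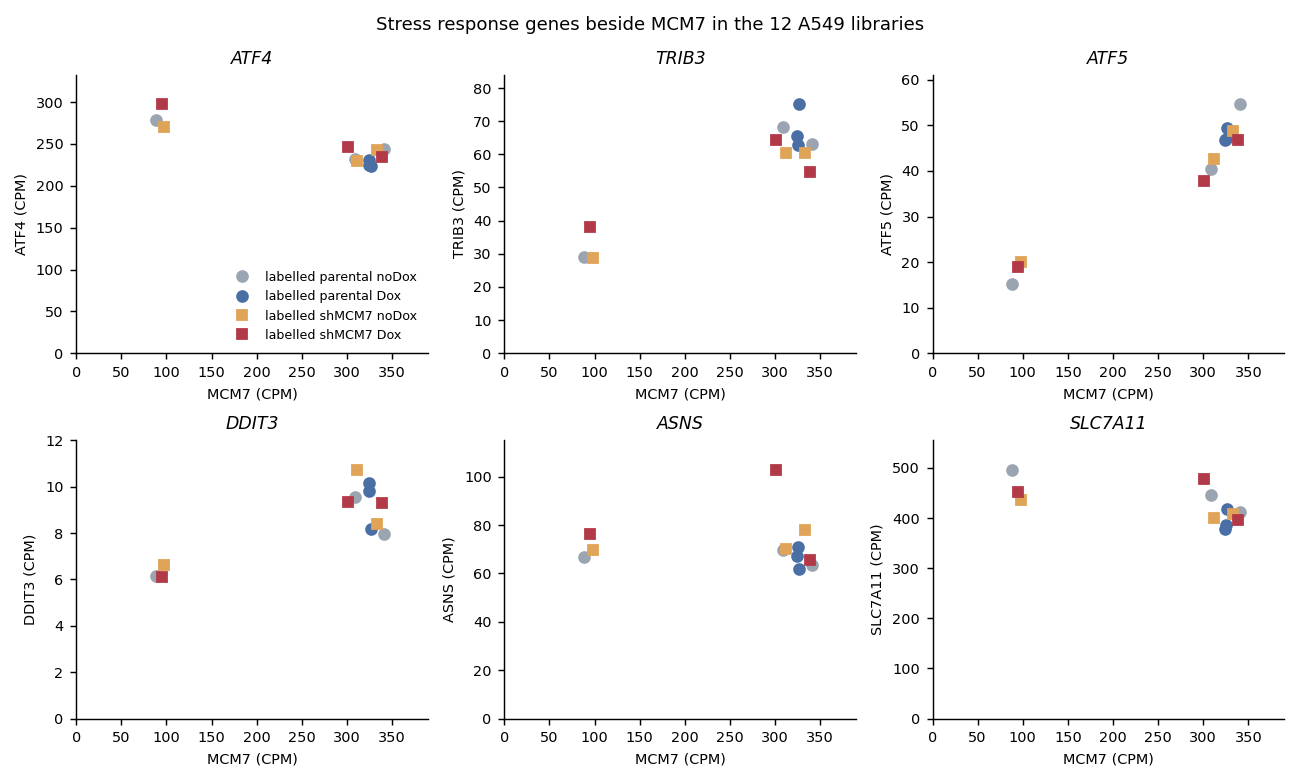
Levels of 6 members (vertical axes, CPM from 0) against MCM7 (horizontal axis, CPM) in the 12 A549 libraries, with symbols and colours by label. The 3 libraries near 90 CPM of MCM7 carry 3 different labels. They lie below the rest for TRIB3, ATF5 and DDIT3, above the rest for ATF4 (271 to 297 CPM) and among the rest for ASNS. Counts of ATF5 and DDIT3 are uncertain because of overlapping genes on the opposite strand.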

How the data were processed

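Per the labels, reads were handled with bcl2fastq 2.19, Trimmomatic, STAR 2.7.1, featureCounts and edgeR on GRCh38.p10. The authors deposited raw counts per gene by Ensembl identifier for each of the 24 libraries. The annotation release, the use of strand and the treatment of reads with several alignments are not given in the sources used here. Names and positions were taken from GENCODE 29 (21349 of 21386 identifiers matched). Printed CPM values are counts scaled to the library total, not rescaled by TMM factors.

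Groups came from the labels. Comparisons were fitted over all genes with edgeR 4.0.16 in R 4.3.3 (TMM, filterByExpr, glmQLFit and glmQLFTest, prior count 0.125) with Benjamini-Hochberg adjustment, and a gene was called at a fold of at least 1.5, p under 0.01 and FDR under 0.05. Other fits used the size factors of DESeq2, the Wald test of DESeq2 1.42.0, other filters, all 12 libraries of a line in the fit, the replicate number as a block, and leaving out each library. The named genes were the 9 members, MCM7, called genes of each list (at most 4 per list and comparison, by size) and the 5 genes most alike; other genes printed with values (NUPR1, ADM2, COL3A1 and the A549 values of list genes) were chosen after their values were seen. The members and lists were chosen with earlier results of these data known. Of the 12 remaining ATF4 targets, FGF21 was below the filter. On simulated counts with genes changed 2-fold, 186 of 199 were recovered in parental A375 (3 unchanged genes called) and 173 of 200 in shMCM7 A375 (0 called). Smaller changes were not simulated, so recovery of changes of the members' size in these comparisons is not known. Replicates are described as biological, without a stated pairing. Libraries sharing a number deviated together (correlation over 0.1 in all 3 pairs) for the noDox comparison of shMCM7 with parental A375 cells (0.318, 0.212 and 0.341), where the block is printed beside the result. Depth limits low genes most: 3 counts were 0.0106 to 0.0205 CPM in A375 and 0.128 to 0.167 CPM in A549, for counting error only. 0 pairs of libraries were identical.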

Additional observations from a re-analysis of the deposited data

Results flagged for a closer look

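For 5 members the effect of Dox differed between shMCM7 and parental A375 cells in the test of the interaction. The difference (shMCM7 minus parental, log2) was -0.61 for ATF4, -0.80 for ASNS, -0.59 for TRIB3, -1.18 for CHAC1 and -0.74 for ATF5. In each of them the parental log2 fold change was not called, and it was above 0 for all but ATF5 (-0.02). CHAC1 was not called without the parental Dox replicate 1 (-1.05) or the shMCM7 noDox replicate 1 (-1.03), nor ATF4 without the parental noDox replicate 3 (-0.54) or the shMCM7 Dox replicate 2 (-0.58). TRIB3 was not called without the parental Dox replicate 1 (-0.54), the parental noDox replicate 3 (-0.52), the shMCM7 Dox replicate 2 (-0.50) or the shMCM7 noDox replicate 2 (-0.51).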

How the results depend on the processing

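The members called lower numbered 2 to 4 in shMCM7 A375 cells with Dox and 3 to 4 against parental cells with Dox over all libraries left out, and 3 under each other alternative. For the difference of the Dox effects they numbered 3 to 7 over libraries left out. There TRIB3 was not called with DESeq2's size factors, DESeq2's Wald test or no filter, and DDIT3 was called under the latter pair (-0.59 in both). For genes at large in parental A375 cells with Dox, 2 were called higher by DESeq2's Wald test, 12 with the replicate block (NUPR1 and ADM2 among them) and 0 to 1 over libraries left out. In the A549 libraries labelled parental, 9 were called higher by DESeq2's Wald test and 0 to 300 over libraries left out, the 300 without the library labelled parental noDox 3. Between shMCM7 and parental A375 cells without Dox, the replicate block called 335 higher and 149 lower, and libraries left out gave 134 to 256 and 39 to 66. The cause of these shifts was not tested.

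In the other comparisons the replicate numbers were shared without every pair correlating over 0.1, and the libraries that correlated best with their own number were 5 of 6 (parental Dox), 6 of 6 (shMCM7 Dox), 2 of 6 (Dox, shMCM7 against parental) and, in A549, 1 and 0 of 6. With the block, 7 members were called for the difference of the Dox effects (DDIT3 and ATF3 added), and no other member call changed. In shMCM7 cells with Dox the transporter SLC6A9 lost its call under the block (-0.58).

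Signs turned only among uncalled members, with these log2 ranges over libraries left out. In parental A375 cells they were -0.26 to 0.039 for ATF3, -0.090 to 0.038 for ATF5, -0.053 to 0.061 for DDIT4 and -0.0041 to 0.34 for SLC7A11. In shMCM7 A375 cells SLC7A11 ran from -0.20 to 0.076. Without Dox, shMCM7 against parental, ASNS ran from -0.099 to 0.24, ATF3 from -0.085 to 0.21 and SLC7A11 from -0.15 to 0.12. In A549 labelled parental, ASNS ran from -0.032 to 0.054 (-0.0026 with all 12 libraries in the fit) and DDIT4 from -0.034 to 0.14. In A549 labelled shMCM7 the ranges were -0.045 to 0.30 for ASNS, -0.12 to 0.30 for ATF3, -0.064 to 0.14 for ATF4, -0.41 to 0.17 for ATF5, -0.074 to 0.43 for CHAC1, -0.22 to 0.12 for DDIT3, -0.13 to 0.0067 for DDIT4 and -0.21 to 0.23 for TRIB3.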
